A study of Mus musculus with 19 samples.

Results

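Rab genes encode small GTP-binding proteins that mark the membranes of the secretory and endocytic routes. All genes of the deposited table whose symbol is Rab followed by a number, with at most 1 letter and 1 further digit, were taken, which gave 43 of 14173 listed genes. RNA was measured in single mouse blastocysts, 1 library per embryo: 9 Padi6-mutant embryos, which per the design text came from oocytes with the P620A mutation of Padi6, and 10 Control embryos. PADI6 is a protein that the oocyte stores, and the comparison asks how blastocyst RNA differs where that store was altered. The labels give neither strain, age, litter nor day, and p-values measure the spread between these embryos, some of which may share a mother.

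A Rab protein is switched on by a guanine nucleotide exchange factor (GEF), which loads GTP, and switched off by a GTPase-activating protein (GAP). In the active state it recruits effectors such as tethers, motors and lipid kinases, and a GDP dissociation inhibitor (GDI) takes the inactive form off the membrane. In the blastocyst, the trophectoderm and the primitive endoderm are polarised epithelia that take up protein and fluid by endocytosis, and recycling Rabs serve the apical surface of such cells. The members were grouped by the compartment at which each is best known to act: 13 secretory (endoplasmic reticulum, Golgi and secretory granules), 7 early endosome, 11 recycling, 7 lysosome or related organelles, and 5 other or unassigned.

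Rab proteins are held on membranes by prenyl groups attached to cysteines near the end of the protein, and the stretch before these cysteines differs between members. The last 45 bases of the coding sequence (15 codons and then the stop codon, which is left out) are shown for members on which the results below turn, from GENCODE release M 21 transcripts on build GRCm38, written 5′ to 3′ on the coding strand, with cysteine codons among the last 5 codons in capitals.
Rab11a, chromosome 9: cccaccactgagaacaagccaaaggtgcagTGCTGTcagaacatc
Rab11b, chromosome 17: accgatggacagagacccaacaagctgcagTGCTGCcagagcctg
Rab21, chromosome 10: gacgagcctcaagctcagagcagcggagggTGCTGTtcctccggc
Rab35, chromosome 5: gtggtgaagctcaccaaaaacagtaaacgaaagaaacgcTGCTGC
Rab4a, chromosome 8: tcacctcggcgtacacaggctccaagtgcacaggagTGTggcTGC
Rab38, chromosome 7: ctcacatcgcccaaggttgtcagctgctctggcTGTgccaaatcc
Rab40c, chromosome 17: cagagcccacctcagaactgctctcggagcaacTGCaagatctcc
Rab6a, chromosome 7: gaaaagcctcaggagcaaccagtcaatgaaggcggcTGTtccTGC
Rab6b, chromosome 9: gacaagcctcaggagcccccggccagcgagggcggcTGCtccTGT
Of 42 members whose tail was read, 35 had 2 cysteine codons in this window and 7 had 1, Rab38 and Rab40c among the 7. The paralogs Rab11a and Rab11b keep the same spacing of cysteines, and so do Rab6a and Rab6b, while the bases before them differ. The tail of Rab18 is not shown.

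Values below are the deposited log2(scaled count + 1), where the authors brought the libraries to a common upper quartile. Genes listed at 0 numbered 113 to 596 per mutant library (median 203) and 30 to 247 per Control library (median 101.5), and 4 mutant libraries, those of embryos 6, 8, 9 and 10, had more than 400. Relative to the mean over all embryos, long transcripts were lower in mutant libraries: Spearman's rho over genes between transcript length and a library's deviation from the gene means ran from -0.42 to -0.09 in mutant and from -0.12 to 0.40 in Control libraries. Padi6 RNA itself ran from 2 over a median of 6.48 to 9.27 in mutant embryos and from 3.81 over 6.48 to 9.24 in Control embryos, which is no check of the labels, since the allele changes an amino acid and acts in the oocyte. Trophectoderm markers summed to 114462 to 548877 scaled counts in mutant embryos (median 330379) and 250123 to 418608 in Control embryos (median 303680), with 11 of 12 markers measured. Of the 11, 3 rose (Tspan8, Plac1 and Tfap2a) and 1 fell (Krt7) at the threshold used below, 36.4% beside 26.6% of all genes. Inner cell mass markers (9 of 10 measured) summed to 65346 to 92737 scaled counts in mutant embryos (median 81756) and 81084 to 149057 in Control embryos (median 131210), and 3 of the 9 (Tfcp2l1, Pou5f1 and Fgf4) fell. These are 33.3% of the measured markers, where 12% of all genes fell. The median log2 fold change of the 9 was -0.86, and Zfp42, Klf4 and Nanog lay between -0.04 and 0.01. Of the cumulus and granulosa markers, 8 of 10 were not among the listed genes.

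Rab11a, the recycling Rab of the apical surface, and Rab21, an early endosome Rab known for integrin traffic, were higher in mutant embryos. Rab18, which acts at the endoplasmic reticulum and lipid droplets, and 6 further members (Rab35, Rab11b, Rab38, Rab40c, Rab4a and Rab6a) were lower. With limma and Benjamini-Hochberg adjustment over all genes at 0.05, 9 of 43 members passed (20.9%), against 26.6% of all genes. Higher in mutant embryos were 2 of 43 (4.65%), against 14.6% of all genes, and lower were 7 of 43 (16.3%), against 12% of all genes. The members thus passed no more often than genes at large. The median log2 fold change over the 43 was -0.13, beside -0.10 over all genes, and 26 of 43 lay below 0. Within single embryos, fewer cells of a type and less RNA per cell cannot be told apart. No member separated the groups fully, against 2.96% of all genes.

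**Figure D1:**
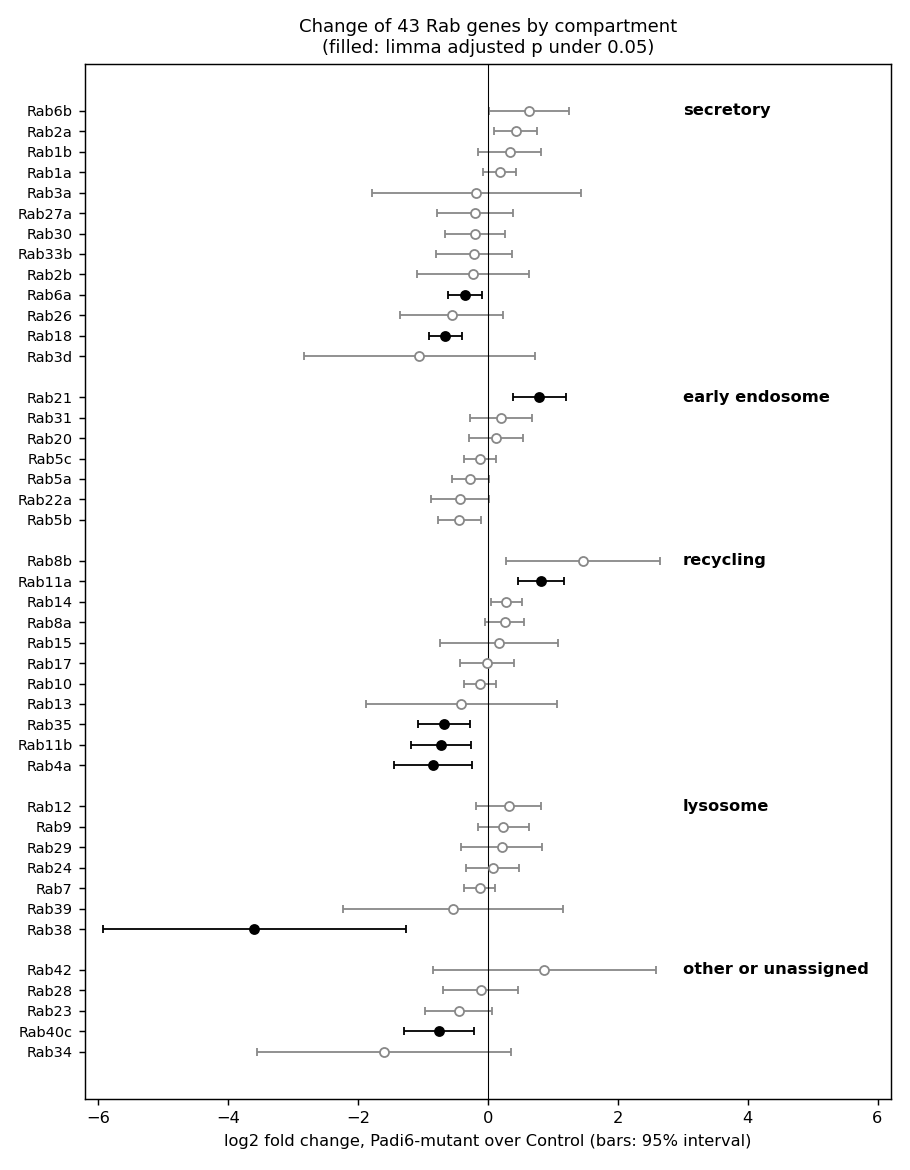
Log2 fold change of each of the 43 Rab genes, Padi6-mutant over Control (x axis), with bars of a 95% interval (normal approximation from the standard error), grouped by compartment; filled points passed limma's adjusted p of 0.05. Rab11a (0.82) and Rab21 (0.79) are the filled points right of 0, and 7 filled points lie left of 0.

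Rab11a had 13.51 as lowest, 13.67 as median and 13.94 as highest log2 level in mutant embryos, against 12.30, 12.77 and 13.71 in Control embryos. All 9 mutant embryos lay above the Control median and 3 above the highest Control embryo, and Control embryos 5 and 9, at 13.71 and 13.69, stood within the mutant range. The log2 fold change was 0.82 ± 0.18 (SE), a 1.77-fold difference, with limma's adjusted p = 0.00174. The level was also less scattered among mutant embryos, with an SD of 0.14 (n = 9), than among Control embryos, with an SD of 0.53 (n = 10).

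Rab21 ran from 9.90 over a median of 10.72 to 11.10 in mutant embryos and from 9.29 over 9.79 to 10.45 in Control embryos. Of the 9 mutant embryos, 7 exceeded every Control embryo, while mutant embryos 3 and 5, at 9.90 and 10.03, lay inside the Control range. The log2 fold change was 0.79 ± 0.21 (SE; 1.73-fold), adjusted p = 0.00714 by limma. When those 4 low-detection libraries (over 400 genes at 0) were left out it was 0.57 (adjusted p = 0.123), and with a covariate for how many genes each library detected it was 0.48 (adjusted p = 0.191).

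Rab18 had 12.57, 12.84 and 13.09 as lowest, median and highest level in mutant embryos, against 13.07, 13.51 and 13.83 in Control embryos. The overlap was slight: 8 of 9 mutant embryos lay below the lowest Control embryo, and mutant embryo 6, at 13.09, lay just above it. Its log2 fold change of -0.66 ± 0.13 (SE) is a 1.58-fold lower level, adjusted p = 6.17e-04 by limma. Rab11a and Rab18 passed in all 10 alternative analyses and in all 19 fits that left out 1 library.

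**Figure D2:**
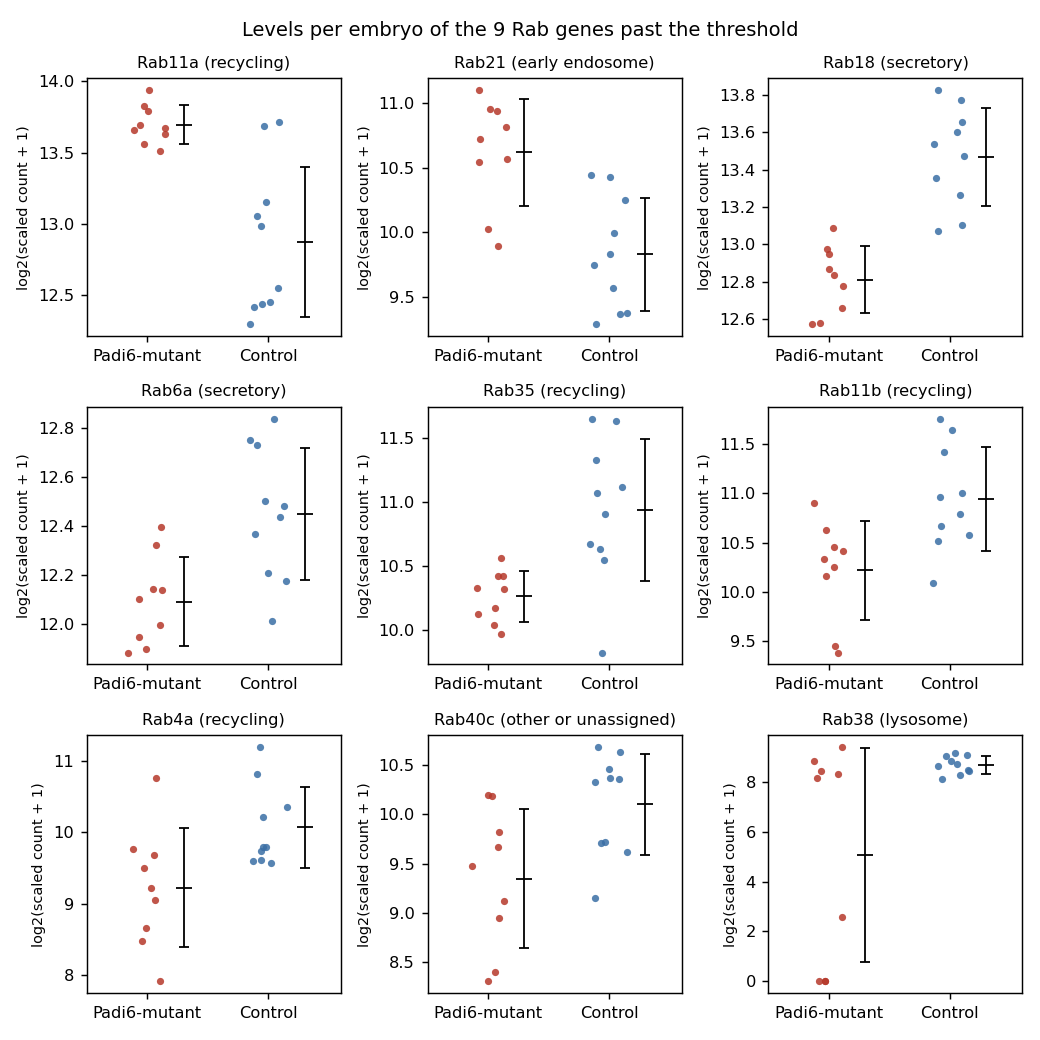
Level per embryo, as log2(scaled count + 1), of the 9 Rab genes past the threshold, with Padi6-mutant embryos left and Control embryos right in each panel; the bar beside each group is the mean with 1 SD (n = 9 and 10). In Rab11a 2 Control embryos stand at the mutant level, in Rab18 8 of 9 mutant embryos lie below every Control embryo, and in Rab38 4 mutant embryos are at or near 0.

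Among the recycling Rabs, 1 of 11 rose (Rab11a) and 3 fell, with a median log2 fold change of -0.02; 4 of 11 (36.4%) is not far from the 26.6% of all genes in a group of this size. Rab35, which returns cargo from endosomes to the plasma membrane, ran from 9.97 over 10.32 to 10.56 in mutant embryos and from 9.82 over 10.99 to 11.65 in Control embryos. All 9 mutant embryos lay below the Control median, and Control embryo 5 was the lowest of all. Its log2 fold change was -0.67 ± 0.20 (SE), adjusted p = 0.0165 by limma. It passed whichever single library was left out, but in 5 of 10 alternatives only. It did not pass with the replicate block (adjusted p = 0.0763), with a covariate for detected genes (0.127) or without the 4 low-detection libraries (0.0515), and with a length trend removed it was -0.34 (0.0940).

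Rab11b, the close paralog of Rab11a, ran from 9.38 over 10.34 to 10.90 in mutant embryos and from 10.09 over 10.88 to 11.76 in Control embryos. In 8 of 9 mutant embryos it lay below the Control median, and in 2 below every Control embryo. The log2 fold change was -0.72 ± 0.23 (SE), adjusted p = 0.0251 by limma, and it no longer passed without mutant embryo 7 or without Control embryo 3 (highest adjusted p 0.0518). It was -0.42 (adjusted p = 0.338) with the covariate for detected genes and -0.59 (adjusted p = 0.151) without the 4 low-detection libraries. The row of its antisense gene Rab11bos1 had a log2 fold change of 1.11 (adjusted p = 0.0938), and whether counting used strand is not given in the sources used here, so reads of the overlapping genes cannot be told apart.

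Rab4a, a Rab of fast recycling, ran from 7.91 over 9.21 to 10.76 in mutant embryos and from 9.57 over 9.79 to 11.19 in Control embryos. It lay below every Control embryo in 6 of 9 mutant embryos, whereas mutant embryo 10 was above most Control embryos. It fell by 0.84 ± 0.31 on the log2 scale (SE), adjusted p = 0.0461 by limma, but only 7 of 19 fits that left out 1 library kept the call (highest adjusted p 0.0905), those without mutant embryo 3, 6 or 10 or without Control embryo 4, 7, 8 or 9.

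Of the recycling Rabs that did not pass, Rab14, which works between Golgi and endosomes, and Rab8a, which carries membrane to the surface and to cilia, had the highest levels. Rab14 stood at 0.28 ± 0.12 on the log2 scale (SE; adjusted p = 0.0938 by limma), with all 9 mutant embryos above the Control median, and passed when Control embryo 9 was left out. Rab8a had 0.26 ± 0.16, adjusted p = 0.232. Rab8b, named after its values were seen, had the highest fold change of all members at 1.46 ± 0.61 (adjusted p = 0.0777), and its Control levels spread from 2.81 to 8.93. Rab10, Rab13, Rab15 and Rab17 lay between -0.41 and 0.17, and none passed.

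Of the 13 secretory Rabs, 2 fell (Rab18 and Rab6a) and none rose, with a median of -0.20. This is 15.4% of the group, where 12% of all genes fell and 26.6% passed in either direction. Rab6a, a Golgi Rab of retrograde transport, ran from 11.88 over 12.10 to 12.40 in mutant embryos and from 12.01 over 12.46 to 12.84 in Control embryos. All 9 mutant embryos lay below the Control median, 4 of them below every Control embryo. At -0.36 ± 0.13 (SE; adjusted p = 0.0478 by limma) on the log2 scale, the call held in 6 of 19 fits that left out 1 library (highest adjusted p 0.0936), those without mutant embryo 2 or 8 or without Control embryo 4, 5, 6 or 9.

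Rab1a and Rab1b, which carry vesicles from the endoplasmic reticulum to the Golgi, did not pass, with log2 fold changes of 0.18 ± 0.13 (adjusted p = 0.333) and 0.34 ± 0.25 (adjusted p = 0.329). Rab2a, another Rab of this step, named after its values were seen, was above the Control median in all 9 mutant embryos at 0.43 ± 0.17 (adjusted p = 0.0609 by limma). The remaining secretory Rabs (Rab2b, Rab3a, Rab3d, Rab6b, Rab26, Rab27a, Rab30 and Rab33b) lay between -1.06 and 0.64, and none passed. The antisense rows Rab26os (1.82, adjusted p = 0.00182) and Rab10os (0.75, adjusted p = 0.0353) rose, and their reads may be shared with Rab26 and Rab10 in the same way. The pseudogene rows Rab7-ps1 (-0.46) and Rab11b-ps2 (-0.58) did not pass, and how reads were divided between them and their parent genes is not given in the sources used here.

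Among the 7 early endosome Rabs only Rab21 passed (14.3%, beside 26.6% of all genes), and the median was -0.12. Rab5a, which drives early endosome fusion, had a log2 fold change of -0.27 ± 0.15 (adjusted p = 0.179 by limma), and Rab20, known from phagosome maturation, 0.13 ± 0.21 (adjusted p = 0.694). Rab5b, named after its values were seen, lay below the Control median in all 9 mutant embryos at -0.44 ± 0.17 (adjusted p = 0.0536). Rab5c, Rab22a and Rab31 lay between -0.44 and 0.20.

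In the lysosome group 1 of 7 passed (14.3%, beside 26.6% of all genes). It was Rab38, a Rab of melanosomes and other lysosome-related organelles. Its levels fell into separate sets among mutant embryos: it was listed at 0 in embryos 7, 8 and 10, stood at 2.58 in embryo 9, and lay between 8.15 and 9.39 in the other 5. Control embryos ran from 8.12 over 8.67 to 9.17. The fold change, -3.60 ± 1.19 on the log2 scale (SE; adjusted p = 0.0287 by limma), thus rests on 4 embryos, 3 of which are low-detection libraries. Leaving out the 4 low-detection libraries gave -1.69 (adjusted p = 0.262), and leaving out mutant embryo 7, 8, 9 or 10 alone also ended the call (highest adjusted p 0.0595).

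Rab7, the late endosome Rab that leads to lysosomes, had a log2 fold change of -0.13 ± 0.12 (adjusted p = 0.454 by limma), and Rab9, which returns cargo from late endosomes to the Golgi, 0.24 ± 0.20 (adjusted p = 0.408). Rab12, Rab24, Rab29 and Rab39 lay between -0.54 and 0.32. Of the 5 other members, Rab40c, which carries a SOCS box that binds ubiquitin ligase subunits, ran from 8.30 over 9.47 to 10.20 in mutant embryos and from 9.15 over 10.34 to 10.68 in Control embryos. All 9 mutant embryos lay below the Control median, and the log2 fold change was -0.76 ± 0.28 (SE; adjusted p = 0.0449), which 8 of 19 fits without 1 library kept (highest adjusted p 0.0902), those without mutant embryo 3, 4, 5 or 10 or without Control embryo 5, 8, 9 or 10. Rab28 (-0.11) and Rab23 (-0.45), both tied to cilia or hedgehog signalling, did not pass, nor did Rab34 (-1.60) and Rab42 (0.87).

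Above 0 in every library were 36 of 43 members, and 26 were, on average, above the median gene. Divided by transcript length, the mean scaled count per kilobase in mutant embryos was 7201 for Rab1a, 6011 for Rab7 and 5709 for Rab11a, and in Control embryos 6391 for Rab1a, 6597 for Rab7 and 3424 for Rab11a. Rab11a, which was the fourth of the 43 in Control embryos, made up 10.7 ± 0.80% of the summed per-kilobase level of all members in mutant embryos and 6.54 ± 1.84% in Control embryos (SD, n = 9 and 10). Rab18 made up 2.08 ± 0.23% in mutant and 3.50 ± 0.85% in Control embryos. By compartment, recycling Rabs held 24.7 ± 1.86% of this sum in mutant and 21.9 ± 1.81% in Control embryos. Rab11a, at 10.7% and 6.54%, differed by more than this, so the other recycling Rabs together held less in mutant embryos. Secretory Rabs held 34.8 ± 2.63% in mutant and 34.2 ± 1.99% in Control embryos. Early endosome Rabs held 16.5 ± 2.22% in mutant and 18.2 ± 1.86% in Control embryos, and lysosome Rabs 22.3 ± 1.80% in mutant and 23.4 ± 2.56% in Control embryos. These shares were not tested, since they are made of the members above.

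Paralogs of 1 number moved apart in some cases, which the difference of log2 levels within each embryo measures. Gene length is not divided out of that difference. It is the same in every embryo, but the length trend of the libraries differed between the groups, so length need not cancel within a pair. The transcripts of Rab11a and Rab11b have 2336 and 6109 nucleotides, and their difference with the trend removed is given further below. Rab11a minus Rab11b ran from 2.73 to 4.31 in mutant embryos and from 0.80 to 3.13 in Control embryos, and 8 of 9 mutant embryos lay above the highest Control embryo. The mean was 3.48 ± 0.49 in mutant and 1.93 ± 0.80 in Control embryos (SD, n = 9 and 10), a difference of 1.55. In an exact two-sided permutation test over 92378 splits p was 1.95e-04, or 0.00175 adjusted over the 9 paralog pairs compared. The coding sequences of the pair were 75.2% identical with no shared stretch of the read length of 75 bases, the longest being 14 bases.

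Rab6a minus Rab6b moved the other way, to 3.67 ± 0.68 in mutant embryos against 4.66 ± 0.75 in Control embryos (exact permutation p = 0.0087, adjusted 0.0392). Rab6b, known as the brain form, had a log2 fold change of 0.64 ± 0.32 (adjusted p = 0.141 by limma). This difference between the groups of -0.99 lost the call when any 1 of 11 libraries was left out (highest adjusted p 0.0839): mutant embryos 3, 4, 5, 6, 7 and 9 and Control embryos 1, 2, 4, 5 and 10. The other 7 pairs did not pass, with adjusted p from 0.253 to 0.545. The 3 pairs of Rab5a, Rab5b and Rab5c share genes and are not independent.

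**Figure D3:**
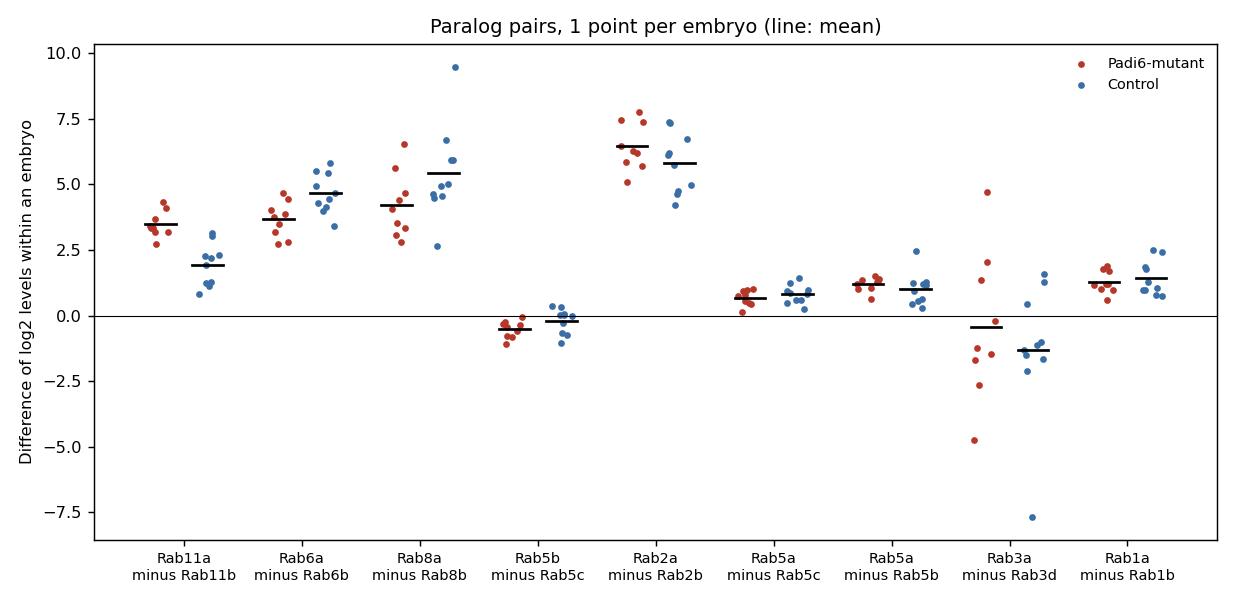
Difference of log2 levels between paralogs within each embryo (y axis) for the 9 pairs, 1 point per embryo, Padi6-mutant left and Control right, with a line at the mean. Rab11a minus Rab11b averages 3.48 in mutant and 1.93 in Control embryos, and Rab6a minus Rab6b 3.67 in mutant and 4.66 in Control embryos.

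Transcript length was set beside these values because it moved with the groups. Across the 13357 genes with a length, log2 fold change and length had a Spearman's rho of -0.36, while across the 43 Rab genes it was -0.01 (a description over genes, which are not replicates). With a length and GC trend removed from each library, 5 of the 9 calls remained (Rab11a, Rab21, Rab38, Rab4a and Rab18). Rab11b then had -0.53 (adjusted p = 0.193), Rab35 -0.34 (0.0940), Rab6a -0.32 (0.0928) and Rab40c -0.37 (0.277). Rab1b (0.69, adjusted p = 0.0266) and Rab6b (0.93, adjusted p = 0.0335) rose, and Rab5a fell (-0.32, adjusted p = 0.0490), by limma. Rab7 passed with the shortest principal transcript (-0.44, adjusted p = 0.0105) but not with the longest (-0.10, adjusted p = 0.509), so its call depends on which transcript sets the length.

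**Figure D4:**
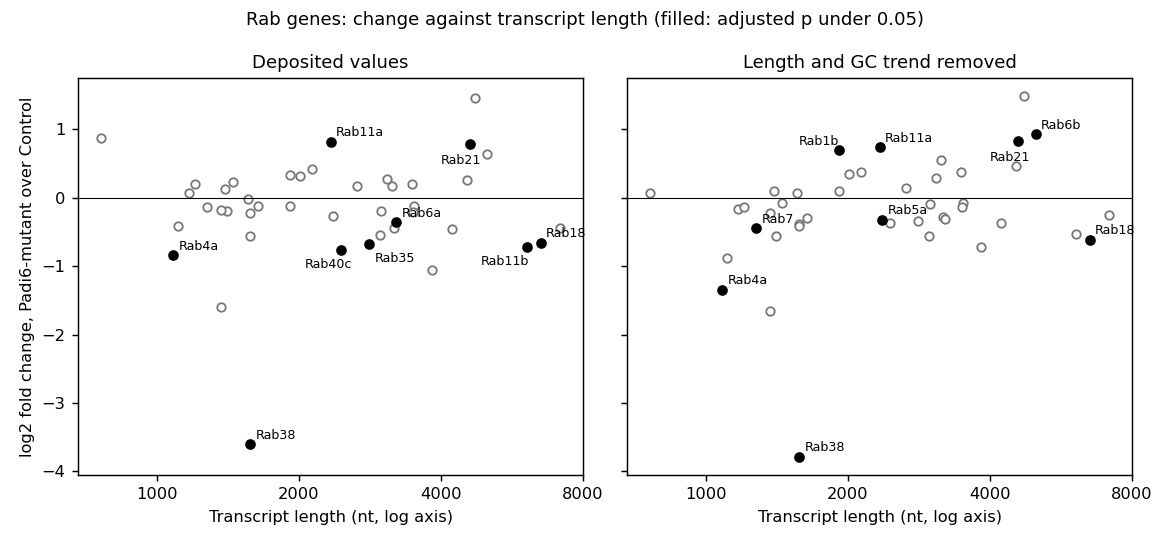
Log2 fold change of the 43 Rab genes, Padi6-mutant over Control (y axis), against transcript length in nucleotides (log x axis), as deposited (left) and with a length and GC trend removed from each library (right); filled points passed limma's adjusted p of 0.05. Rab11a, Rab21, Rab38, Rab4a and Rab18 are filled on both sides.

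The relation of each member's level to the length trend of its library was computed within each group, 86 relations in all, a choice made after values of several members were seen. For Rab11a, Pearson's r over the 10 Control embryos was -0.96 and Spearman's rho -0.96 (permutation p = 7.0e-05 and 4.0e-05; adjusted over the 86 relations 0.00301 for both). Of all 14173 genes, 0.522% had an r at least as far from 0 in these embryos. The r was -0.88 without the 2 embryos farthest from the median trend. The Control embryos at the mutant level, 5 and 9, had trends of -0.12 and -0.11, within the range of mutant libraries. Over the 9 mutant embryos r was 0.35 and rho 0.37 (exact permutation p = 0.357 and 0.336; adjusted 0.695 and 0.721). Rab29, of lysosome-related organelles, gave r -0.95 and rho -0.96 in Control embryos (permutation, adjusted p = 0.00258 and 0.00301), and -0.84 without the 2 farthest embryos. Rab14 gave r -0.87 there (permutation, adjusted p = 0.0344), which was -0.61 without the 2 farthest. Its rho of -0.84 did not pass (permutation, adjusted p = 0.05002).

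Rab21 gave a positive r among mutant embryos. Its r over the 9 mutant embryos was 0.87 and rho 0.92 (exact permutation p = 0.00144 and 0.00131; adjusted 0.0344 and 0.0376), and r was 0.79 without the 2 farthest embryos. Of all genes, 2.09% had an r at least as far from 0. The 3 mutant embryos with the highest Rab21, 8, 9 and 10 (10.94, 10.96 and 11.10), are low-detection libraries, and embryos 9 and 10 have the trends nearest 0 (-0.09 and -0.12). The part of detection in this relation was not tested. Over the 10 Control embryos r was -0.29 and rho -0.32 (permutation p = 0.412 and 0.369; adjusted 0.695 and 0.721). For Rab18 r was 0.16 and rho 0.30 in mutant embryos (exact permutation p = 0.676 and 0.437), and r 0.03 and rho 0.13 in Control embryos (permutation p = 0.936 and 0.733). With the trend removed, the log2 fold change was 0.74 for Rab11a (adjusted p = 0.0103 by limma), 0.83 for Rab21 (adjusted p = 7.5e-04) and -0.62 for Rab18 (adjusted p = 0.00926), and Rab11a minus Rab11b still differed by 1.27 (exact permutation, adjusted p = 0.00195). That removal takes out of each library the average trend of genes of like length and GC. A member's own relation to the trend can stay in its values, so the removal is no test of that relation. What the trend itself reflects was not tested.

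**Figure D5:**
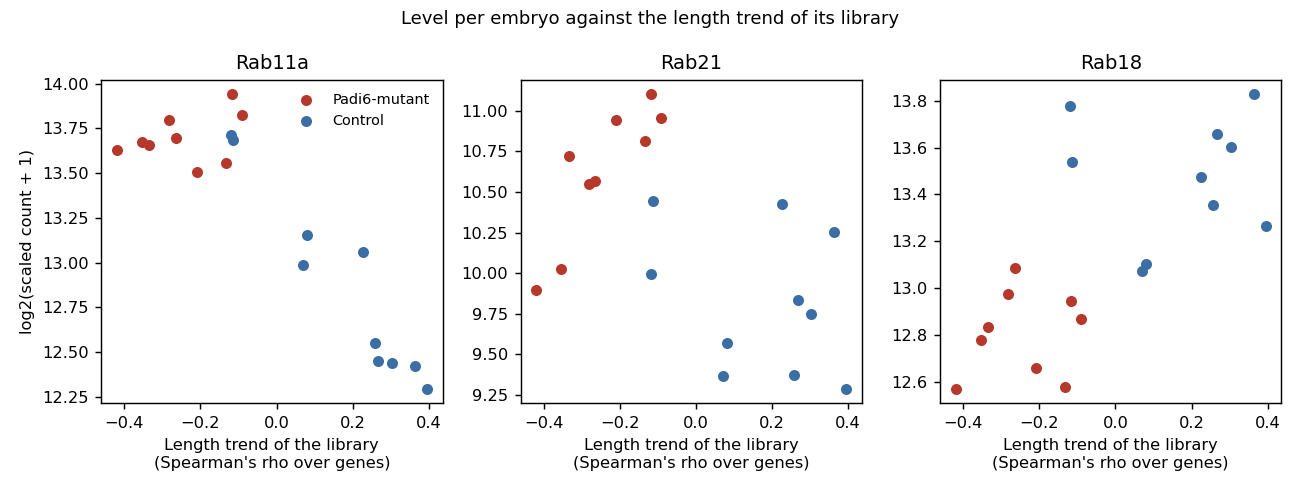
Level per embryo of Rab11a, Rab21 and Rab18, as log2(scaled count + 1) (y axes), against the length trend of its library, Spearman's rho over genes between transcript length and deviation from the gene means (x axes), for 9 Padi6-mutant and 10 Control embryos. Control embryos 5 and 9 share both the trend and the Rab11a level of mutant embryos, while for Rab18 both stay at the Control level.

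The genes that handle Rab proteins were counted from lists of their families, and 41 of 153 measured genes passed (26.8%, beside 26.6% of all genes), 7 higher and 34 lower. Past the threshold, 14.6% of all genes were higher and 12% lower. Among 9 genes of prenylation and membrane extraction, Rabac1, the prenylated Rab acceptor, rose by 1.18 ± 0.26 on the log2 scale (SE; adjusted p = 0.00155 by limma). Rabggta, a subunit of the enzyme that prenylates Rab proteins, fell by 0.97 ± 0.24 (adjusted p = 0.00429).

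Of 50 GEF genes, 6 rose and 11 fell, with a median of -0.27; 34% passed, beside 26.6% of all genes, of which 14.6% rose and 12% fell. All 6 that rose encode subunits of TRAPP, exchange complexes that act on Rab1 and other Rab proteins. Of its 14 measured subunits 1 fell (Trappc9, adjusted p = 0.0351 by limma), a call that ended when mutant embryo 2, 3, 6, 8 or 10 or Control embryo 1, 2, 3, 6 or 8 was left out. Trappc2l had 11.74 as lowest, 12.03 as median and 12.46 as highest level in mutant embryos, against 8.72, 9.46 and 11.26 in Control embryos, with no overlap. Its log2 fold change was 2.27 ± 0.26 (SE; adjusted p = 1.10e-06 by limma). Trappc1 rose by 1.64 ± 0.25 (adjusted p = 4.40e-05) and Trappc6a by 1.48 ± 0.24 (adjusted p = 9.56e-05). Of 15 genes with a Dennd symbol, GEFs with DENN domains, 5 fell and none rose (33.3% past the threshold), while 50% of the 14 TRAPP genes passed. Madd, Sbf1 and Sbf2, DENN genes under other symbols, were not in this set and did not pass (adjusted p = 0.850, 0.0733 and 0.585 by limma). The TRAPP and Dennd sets were split off from the GEF list and were not among the lists planned at the start. The median transcript length was 2001 nucleotides for the TRAPP genes and 5152 for the Dennd genes. With the length and GC trend removed, Trappc2l stood at 2.41, Trappc6a at 0.81 and Trappc1 at 0.49, all still past the threshold (adjusted p 2.28e-06, 0.00264 and 0.0213). Such values are not given here for Trappc6b, Trappc5 and Trappc2, which also rose, nor are fits without 1 library for the subunits that rose.

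Of 36 GAP genes 9 fell and none rose, with a median of -0.40, beside -0.10 over all genes. The 9 are 25% of these genes, where 12% of all genes fell and 26.6% passed the threshold in either direction. Tbc1d1, which governs glucose transporter traffic in muscle, fell by 0.93 ± 0.22, Tbc1d24, known from synapses, by 1.65 ± 0.44, and Tbc1d13, a GAP of Rab35, by 0.78 ± 0.21 (adjusted p = 0.00347, 0.00738 and 0.00789 by limma). Of 58 effector genes 13 fell and none rose, with a median of -0.41. The 13 are 22.4% of these genes, beside the same 12% of all genes that fell and 26.6% in either direction. Pik3r4, the Vps15 subunit of the endosomal lipid kinase, fell by 0.77 ± 0.20 (adjusted p = 0.00590). Vps33a and Vps16, subunits of the tethers of early endosomes and lysosomes, fell by 0.81 ± 0.22 and 0.89 ± 0.26 (adjusted p = 0.00726 and 0.0130), and Vps18 and Vps11 of the same complexes also passed. Their subunits Vps39 (-0.04), Vps41 (-0.21) and Vps8 (-0.21) did not pass (adjusted p = 0.892, 0.282 and 0.489 by limma). With the length and GC trend removed, 11 of 49 GEF, 2 of 36 GAP and 2 of 58 effector genes passed, beside 20.8% of all genes with a length. With the covariate for detected genes, 9 of 50 GEF genes passed but 0 GAP and 0 effector genes, where 12.7% of all genes passed. Of the GAP and effector genes, 9 and 15 had an unadjusted p under 0.05 in that limma fit.

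Endocytic receptors and adaptors, the cargo side of the route, were lower or did not pass: 5 of 16 fell and none rose. The 5 are 31.2% of these genes, where 12% of all genes fell and 26.6% passed the threshold in either direction. Cubn, the receptor cubilin of absorptive endoderm, ran from 6.46 over 9.45 to 11.17 in mutant embryos and from 8.24 over 11.69 to 12.29 in Control embryos. All 9 mutant embryos lay below the Control median, and it fell by 1.97 ± 0.53 on the log2 scale (SE; adjusted p = 0.00829 by limma), with -1.58 (adjusted p = 0.116) under the covariate for detected genes. Lrp2, which encodes its partner megalin, had -0.43 ± 0.23 (adjusted p = 0.177), Dab2, their adaptor, 0.23 ± 0.16 (adjusted p = 0.283), and Amn, which brings cubilin to the surface, -1.39 ± 1.07 (adjusted p = 0.358). Of 10 primitive endoderm markers measured, 6 fell and none rose (60%, where 12% of all genes fell). Under that covariate 1 of 10 passed, where 12.7% of all genes did. These markers summed to 18408 to 37590 scaled counts in mutant embryos (median 28646) and 20714 to 88825 in Control embryos (median 49013). Their part in the values of Cubn and of the Rab genes was not tested.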

How the data were processed

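Polyadenylated RNA of single blastocysts was read as 75-base pairs to a mean of 4200000 reads per library, per the labels' protocols, which speak of 20 pooled libraries, of which 19 were analysed. Trim Galore 0.4.4 and HISAT2 2.1.0 are named in the submitters' processing notes; the counting tool, annotation and use of strand are not given in the sources used here. The authors deposited log2 values of 14173 genes; taken back from the log2 scale each lies within 1.96e-07 of a whole number, a scaled count plus 1, with 1 scaling to a common upper quartile. Totals of scaled counts are not depths, so no counting interval is given. For low genes a fold change on this scale depends on the added 1 and on values at 0. For Rab38 it was -3.60 as deposited and -2.36 with 10 added in place of 1. Its mean scaled count per kilobase was 146 in mutant and 266 in Control embryos. The table lists genes above 0 in no fewer than 9 libraries, and 16 of 59 Rab symbols known to RefSeq were not analysed here. No library was a duplicate of another (Spearman's rho at most 0.972).

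Groups were compared with limma 3.58.1 (trend, two-sided) in R 4.3.3 over all genes, with Benjamini-Hochberg adjustment and a threshold of 0.05, after a check on simulated data. Paralog differences were compared with exact permutation tests (scipy 1.17.1, Python 3.11.15). Coding sequences were aligned with biopython 1.88. Lengths and GC content came from GENCODE M 21 (GRCm38, other than the GRCm39 of the labels, so no coordinates are given), as the shortest principal transcript, for 13357 genes (94.2%). Their trend per library was removed by lowess (span 0.3). Alternatives were quantile normalization, median centring, a pseudocount of 10 in place of 1, trend removal, a block for the replicate number, genes above the median only, detected genes as covariate, leaving out low-detection libraries (over 400 genes at 0), library weights, and leaving out each library. The members, compartments and lists were chosen with earlier results of these data known. Named were all members past the threshold, the 2 of highest mean per compartment among the rest, up to 3 genes per machinery list past the threshold by adjusted p, and Lrp2, Cubn, Amn and Dab2; others are said to be chosen later.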

Additional observations from a re-analysis of the deposited data

Results flagged for a closer look

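Of 104 groups of values tested (each member and each paralog pair in each group), 11 had 1 embryo far from the others of its group, by Dixon's criterion at 95%, which chance gives in about 1 in 20. At the low end, Rab9 was at 11.4 in mutant embryo 4, Rab28 at 6.91 in mutant embryo 8, Rab3a at 1.58 in mutant embryo 10 and Rab26 at 5.13 in Control embryo 4. Listed at 0 were Rab39 in mutant embryo 10, Rab13 in mutant embryo 6, Rab3d in mutant embryo 4 and Rab3a in Control embryo 5. At the high end, Rab5b was at 11.6 in mutant embryo 10. Control embryo 5 also stood apart in Rab5a minus Rab5b (2.48) and in Rab3a minus Rab3d (-7.68). Of the members concerned none is among the 9 past the threshold. Mutant embryos 6, 8 and 10, which hold 5 of the 11 values, are libraries with over 400 genes at 0.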

How the results depend on the processing

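Of the 9 members past the threshold, Rab11a (log2 fold change 0.70 to 0.90) and Rab18 (-0.78 to -0.62) passed under all 10 alternatives and in all 19 fits without 1 library; Rab21 and Rab4a passed in 8 of 10, Rab38 in 6 of 9, Rab35 and Rab11b in 5 of 10, Rab40c in 4 and Rab6a in 3. No called member changed direction under an alternative. The count of 9 was 2 with detected genes as a covariate (Rab11a and Rab18), 3 without the low-detection libraries and 11 with library weights. Of all genes, 12.7%, 18.5% and 37.7% passed in these settings, beside 26.6% in the main fit. When 1 library was left out, 4 to 11 members passed, and 3035 to 4288 of all 14173 genes. The count was 4 without mutant embryo 7, 5 without mutant embryo 9 or Control embryo 3, and 6 without mutant embryo 8 or Control embryo 2. The replicate numbers did not pair the embryos: the correlation of same-numbered embryos ran from -0.07 to 0.15, with 1 of 9 over 0.1 and 1 mutant embryo closest to its own number. A block for that number, in which Control embryo 1 has no counterpart and adds nothing, gave 5 calls among the members (1 secretory, 1 early endosome, 2 recycling, 1 lysosome and 0 in the other or unassigned group), and 10 GEF, 3 GAP and 7 effector genes. With that block 17.8% of all genes passed.

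The 2 secretory calls were 1 under median centring, a pseudocount of 10, detected genes as a covariate and without the low-detection libraries. The 1 early endosome call was 2 with the length and GC trend removed (shortest principal or longest transcript), among genes above the median and with library weights, and 0 with detected genes as a covariate and without the low-detection libraries. The 4 recycling calls were 2 with either trend removed and without the low-detection libraries, and 1 with detected genes as a covariate. The 1 lysosome call was 2 with the principal-transcript trend removed, and 0 among genes above the median, with detected genes as a covariate, without the low-detection libraries and with library weights. The 1 other call was 0 under median centring, either trend removed, detected genes as a covariate and without the low-detection libraries. Without 1 library each, the counts ran over 1 to 3 secretory, 1 to 2 early endosome, 2 to 5 recycling, 0 to 1 lysosome and 0 to 1 other calls.

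The counts of machinery genes were 17 GEF, 9 GAP, 13 effector and 2 prenylation genes. They were 11, 2 and 2 GEF, GAP and effector genes with the principal-transcript trend removed and 10, 2 and 3 with the longest-transcript trend, and 9, 0 and 0 with 1 prenylation gene with detected genes as a covariate. Without the low-detection libraries 4 effector genes passed, and with library weights 21. The shares of all genes that passed in these settings are given above. Without 1 library each, they ran over 13 to 22 GEF, 4 to 11 GAP, 8 to 15 effector and 2 to 3 prenylation genes.

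Members not past the threshold changed sign in places. With the principal-transcript trend removed, Rab5c was at 0.10, Rab9 at -0.0797, Rab29 at -0.13, Rab24 at -0.17 and Rab17 at 0.0680. With the longest-transcript trend removed, Rab5c was at 0.0715, Rab20 at -0.0091, Rab9 at -0.20, Rab29 at -0.32, Rab24 at -0.29, Rab42 at -0.0022 and Rab17 at 0.16. With detected genes as a covariate, Rab39 was at 0.10, Rab42 at -0.35, Rab13 at 0.74, Rab33b at 0.0154, Rab2b at 0.16 and Rab3a at 0.58. Without the low-detection libraries, Rab20 was at -0.0268, Rab42 at -0.25, Rab28 at 0.00087, Rab13 at 0.38, Rab2b at 0.17 and Rab3a at 0.35. With library weights, Rab20 was at -0.0649, Rab13 at 0.10, Rab15 at -0.0912 and Rab2b at 0.0074. Rab17 was at 0.0064 under median centring and at 0.0288 with the replicate block, and Rab1a at -0.0662 under quantile normalization. Without 1 library each, Rab17 ran from -0.13 to 0.12, Rab3a from -0.77 to 0.27, Rab24 from -0.0092 to 0.15, Rab20 from -0.0138 to 0.23, Rab13 from -0.62 to 0.40, Rab28 from -0.21 to 0.14, Rab39 from -0.87 to 0.25 and Rab15 from -0.0584 to 0.47. Rab11a minus Rab11b stayed past the threshold throughout (1.23 to 1.54, and 1.42 to 1.68 without 1 library). The Rab6a minus Rab6b difference ran from -1.13 to -0.87 without 1 library, and Rab5a minus Rab5b turned to -0.0377 and -0.0627 with the trends removed. The cause was not tested in any of these cases. Depth per library is not known from scaled values, and members at 0 in some embryos (7 of 43) are the least precise.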
